A study of Mus musculus with 400 samples.

Results

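Among sorted Lgr5-high epithelial cells of the mouse gut, 90 cells were set apart because they carried the most transcript of 4 genes of the absorptive lineage: Fabp1, Fabp2, Prap1 and Apoa1. Each gene's count was divided by the total of its cell and put on the CPM scale (counts per 1000000 counts of the cell), and the 4 values were summed to a gate value. Within each of 10 library sets, the 25% of cells with the highest gate value were taken as gate-high cells, and the 50% with the lowest as gate-low cells. Of 400 cells in all, 380 had at least 10000 counts and were kept. Each set gave 9 gate-high cells and 18 or 19 gate-low cells. The 90 cells were selected on these values, so their levels of the 4 genes are a description and support nothing. As a group, the other absorptive genes were about level between gate-high and gate-low cells. Over 83 measured genes of lipid handling, the brush border and nutrient transport, the median log2 ratio of gate-high to gate-low cells was 0.00, with 42 genes above 0 and 41 below. All 20832 genes seen in at least 5% of the cells, the floor for the 83 genes, had a median of -0.17. Of these, 38.1% lay above 0, so the 83 genes lay above genes at large at that floor. The 29 of the 83 seen in at least 50% of the cells had a median of 0.06, with 19 above 0. All ranked genes seen that often also had a median of 0.06, with 58.2% above 0. Taken within each set, the median of the 83 genes averaged -0.16 ± 0.27 (SD over 10 sets) and lay below 0 in 8 sets. Within-set ratios ran below 0 for genes at large. With the median over sets as each gene's ratio, the median of all 14737 ranked genes was -0.15. That measure and gene set differ from those of the 83 genes, and no like within-set value for all genes was computed. The within-set value of -0.16 is not read, on its own, as a drop of the absorptive genes. The summed level of these lists had a median of 3678 CPM in gate-high cells and 3681 CPM in gate-low cells. For the 90 cells as a group, these levels did not bear out a label of absorptive priming. The 83 genes did lie above all genes at their floor. Among genes seen in at least 50% of the cells, no such difference was found. The 90 cells are called gate-high cells here.

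Lgr5-expressing stem cells lie at the crypt base and divide to replace the epithelium of the gut. Daughters that keep Notch signaling become absorptive enterocytes, and those that escape it become secretory cells (Paneth, goblet, enteroendocrine and tuft cells). Enterocytes mature while they leave the crypt. They build a brush border of microvilli and turn on genes for lipid uptake and export, digestive enzymes and nutrient transporters. Fabp1 and Fabp2 encode the liver and intestinal fatty acid-binding proteins of the cytosol. Apoa1 encodes the main apolipoprotein of high-density lipoprotein, and Prap1 a secreted proline-rich acidic protein of the gut epithelium.

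All 400 cells came from 1 sorted population, labelled Lgr5 intestinal stem cells, of Lgr5 GFP/+ mice (the Lgr5::EGFP-IRES-Cre-ERT2 allele, in which Lgr5 drives the green fluorescent protein). Crypts of the duodenum and jejunum were dissociated, dead cells were removed with DAPI, and single cells were captured on the Fluidigm C1 system. The labels state tamoxifen for lineage tracing and do not tie it to the sequenced cells, and the age of the mice is not given in them. No animal is named for any cell, so the population counts as 1 sample, cells do not serve as replicates, and no test was run. The spread given is the standard deviation (SD) over the 10 library sets of 40 cells each. The sets are known only by a number in the cell names, and the labels do not say what separates them. Kept cells held 10766 to 70133 counts, with a median of 32112. No deposited value exceeded 36, so levels of abundant genes may be compressed. Each of the 40 barcode numbers recurs in all 10 sets, and a barcode number contributed between 0 and 6 gate-high cells.

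The gate value was mostly Prap1 and Fabp2. Prap1 made up 53.3% of the summed gate value of the gate-high cells, Fabp2 32.8%, Fabp1 9.92% and Apoa1 3.96%. Prap1 was the largest of the 4 terms in 78 of the 90 cells. The lowest gate-high cell of a set had between 747 and 930 CPM, and the highest cell just outside had between 723 and 911 CPM. Neighbours across that line thus differed little, and the gate-high cells are a range of a continuous value.

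Fabp1 (chromosome 6, 71199827 to 71205023, GRCm38) had no count in 23 of the 90 gate-high cells. Its set means were 57.5 to 180.3 CPM (median 97.8) in gate-high cells and 9.03 to 50.5 CPM (median 17.5) in gate-low cells. The ranges did not overlap, in a gene that helped to choose the cells. Fabp2 (chromosome 3, 122895072 to 122899506) was counted in all 90 gate-high cells, with set means of 251.97 to 443 CPM (median 321.6) against 77.9 to 175.96 CPM (median 154.8). Prap1 (chromosome 7, 140093395 to 140097200) was counted in all 380 cells, with set means of 437 to 585 CPM (median 512) against 271.8 to 407 CPM (median 352.6). Its ratio was the smallest of the 4. Apoa1 (chromosome 9, 46228580 to 46230466) had a count in 31.1% of gate-high cells and 17.7% of gate-low cells. Its set means were 0 to 167.3 CPM (median 20.1) against 0 to 26.7 CPM (median 4.44), and these ranges overlapped. On the log2 scale the ratios were 1.93 ± 0.69 for Fabp1, 1.11 ± 0.31 for Fabp2, 0.57 ± 0.12 for Prap1 and 2.35 ± 1.60 for Apoa1 (± SD over 10 sets). Fabp2 overlaps the annotated gene 4933405D12Rik and Prap1 overlaps Fuom. The sources used here do not say whether counting used strand, so reads of these pairs cannot be told apart.

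**Figure D1:**
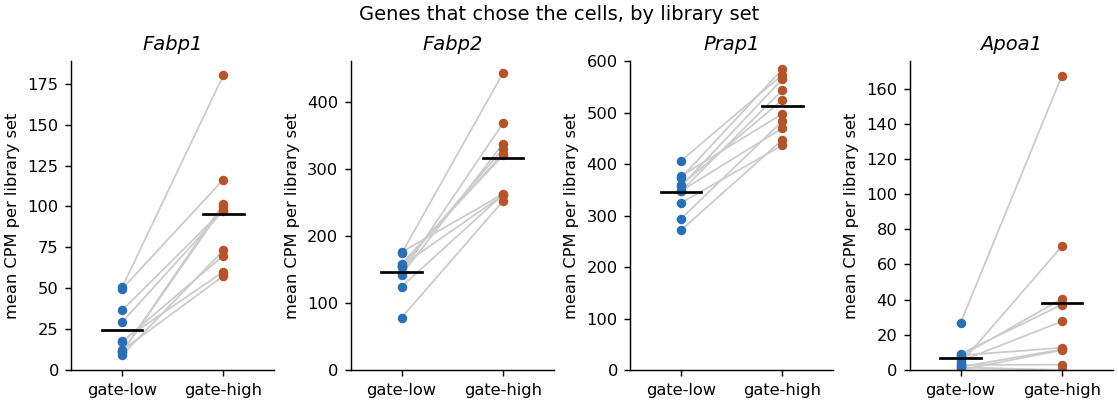
Mean CPM of each selecting gene in gate-low (blue) and gate-high (orange) cells, with 1 point per library set, grey lines joining the classes of a set and black bars for the mean of 10 sets. Fabp1, Fabp2 and Prap1, which with Apoa1 chose the cells, are higher in gate-high cells in every set, and the highest Apoa1 point, 167.3 CPM, is library set 10.

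The 4 genes hardly varied together. Across the 380 kept cells, Spearman's rho between pairs lay between -0.05 (Prap1 and Apoa1) and 0.15 (Fabp2 and Prap1), a description of cells that share the scaling to a total. Pearson's r of Fabp1 and Apoa1 was 0.28, and 0.08 without the cell of highest gate value. When the top 25% of each set was drawn for each gene by itself, 25 of the 90 gate-high cells were in the top for 1 gene only, 43 for 2 genes, 17 for 3 genes and 5 for all 4. With the gate drawn from the mean rank over the 4 genes, 72 of the 90 cells were selected again, and with Fabp1 and Apoa1 alone 48 were.

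For single genes, a call of higher or lower needed a difference of at least 1.5-fold between the means over 10 sets. The ratios within sets also had to go in that direction, at any size, in at least 8 of 10 sets. Ranking was limited to 14737 genes seen in at least 10% of the cells and at 10 CPM or more in either class. Of these, 0.964% were called higher in gate-high cells and 17.7%, or 2602 genes, were called lower. Among the 7479 genes seen in at least 50% of the cells, 49 (0.655%) were called higher and 586 (7.84%) lower. The call is one of size and sign only. A sparse gene is often at 0 in the 9 gate-high cells of a set while a few of its 18 or 19 gate-low cells have it.

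Genes of lipid handling, which take up fatty acids, rebuild triglycerides and export them as chylomicrons, had a median log2 ratio of 0.14 over 24 genes, 15 of them above 0. None was called higher and 2 were called lower: Abca1, a cholesterol exporter (7.67 against 18.98 CPM), and Cd36, a fatty acid receptor (5.92 against 12.9 CPM). Of all ranked genes, 0.964% were called higher and 17.7% lower. The apolipoprotein genes Apoc3, Apoa4 and Apoc2 had the largest ratios of the list. Apoc3 had 8.40 against 2.09 CPM, higher in 4 sets and lower in 1. Apoa4 had 25.7 against 9.23 CPM, higher in 5 sets and lower in 2. Apoc2, the activator of lipoprotein lipase, had 51.4 against 22.9 CPM, higher in 6 sets and lower in 4. Apob, the structural protein of chylomicrons, had 40.1 against 46.9 CPM, and Rbp2, a carrier of vitamin A, 12.3 against 8.25 CPM. Of these 5 genes, Apoa4 (1.38 ± 1.14) was the one whose ratio exceeded its SD over sets. Its ratio was 0.04 without library set 10.

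Structural genes of the brush border had a median of 0.04 over 18 genes (10 above 0, 0 called higher, 2 called lower). Vil1, the actin-bundling villin, had 258.7 against 225.8 CPM (0.20 ± 0.28). Krt20, a keratin of mature enterocytes, had 12.9 against 3.59 CPM, but was higher in 3 sets and lower in 4. Pdzk1, a scaffold for transporters, was called lower (4.05 against 11.2 CPM), as was Tmigd1, with 0 counts in gate-high cells and 23 in gate-low cells. The digestive enzymes of the brush border had a median of -0.07 over 16 genes (7 above 0, 0 called higher), and the peptidase gene Xpnpep2 was called lower (3.69 against 6.21 CPM). Sis, the sucrase-isomaltase, had 27.3 against 16.1 CPM (0.72 ± 1.79). Lct, the lactase, had 12.9 against 15.6 CPM, and Anpep, aminopeptidase N, 23.95 against 21.96 CPM. Alpi, the intestinal alkaline phosphatase, was too sparse for the list and had 5.74 against 0.868 CPM, from 17 and 5 counts.

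Over 25 nutrient transporters the median was -0.08 (10 above 0, 0 called higher, 3 called lower). Slc5a1, the sodium-glucose transporter, was level, with 110.03 against 109.7 CPM (0.00 ± 0.67). Slc46a1, the intestinal folate carrier, had the largest ratio of the list, 14.9 against 1.77 CPM (2.52 ± 2.06), yet was higher in 6 sets and lower in 2 and so was not called. The genes called lower were Slc34a2, a phosphate transporter, Slc6a19, an amino acid transporter, and Slc9a3, a sodium-proton exchanger.

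The summed level of all 87 genes of these 4 lists had a median of 3678 CPM in gate-high cells and 3681 CPM in gate-low cells. Gate-high cells ran from 2231 to 18485 CPM and gate-low cells from 2624 to 7296 CPM. By set, the mean sum was higher in gate-high cells in 4 of 10 sets. A gate-high cell had a count for a median of 32.5 of the 87 genes and a gate-low cell for 35.5.

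**Figure D2:**
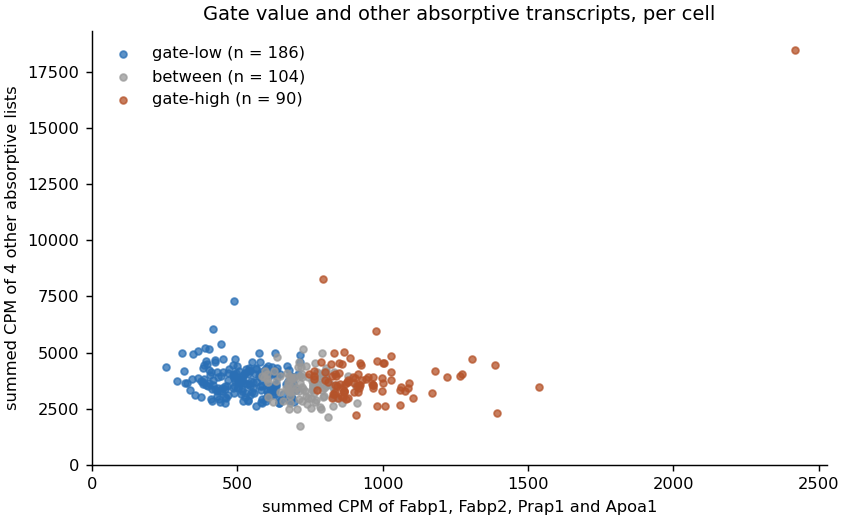
Each point is 1 of 380 cells, with the gate value on the horizontal axis and the summed CPM of the 87 other absorptive genes on the vertical axis. The cloud is flat along the gate value, and 1 gate-high cell stands apart at 2420 CPM and 18485 CPM.

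That 1 cell, of library set 10 with barcode number 10, had the highest gate value of all and a broad absorptive profile. It had a count for 71 of the 87 absorptive genes and 573 counts in them. The next cell by absorptive sum, a gate-high cell of library set 7, reached 8285 CPM with a count for 60 of the genes. The third, a gate-low cell of library set 1, reached 7296 CPM with 44 of them. The depth of the cell that stands apart was ordinary, at 30998 counts and 8961 genes. It had 22 counts of Apoa1, and no other cell had over 14. It had 25 counts of Apoa4, where the next highest was 7, and 13 of Apoc3, where the next highest was 4. Alpi reached 13 counts against 3 in the next cell, Sis 16 against 11 and Lct 11 against 6. Stem cell transcripts were present beside them. Lgr5 had 10 counts, Smoc2 8, Olfm4 5 and Ascl2 4, against medians of 6, 9, 6 and 4 in the other cells. Mki67, a marker of cycling cells, had 3 counts against a median of 10. Whether the capture site held 1 cell or more was not tested.

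This cell carried much of the difference in absorptive genes. It held 76.5% of the Alpi counts of the 90 gate-high cells, 54.2% of Apoc3, 37.9% of Apoa4, 32.4% of Lct and 21.4% of Apoa1. Without it the log2 ratio was 0.18 for Alpi in place of 1.85, 0.67 for Apoc3 in place of 1.61, 0.90 for Apoa4 in place of 1.38, and 0.43 for Sis in place of 0.72. The list medians without it were 0.05 for lipid handling, 0.04 for brush border structure, -0.19 for brush border enzymes and -0.18 for transporters. Over all 83 genes the median became -0.04, with 34 genes above 0. The selecting genes moved less, Apoa1 to 2.07 and Fabp1 to 1.85.

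Shares of cells with a count were compared for 5 of these genes. To compare cells of unequal depth, each was thinned at random to 19169 counts, which left out 13 gate-high and 15 gate-low cells. Apoa4 was then found in 11.7% of gate-high cells (exact 95% binomial interval 5.49 to 21.03%) and 9.94% of gate-low cells (5.90 to 15.4%), and before thinning in 18.9% and 15.1%. Sis was found in 28.6% (18.8 to 40.0%) and 23.4% (17.3 to 30.5%), and before thinning in 34.4% and 34.9%. Alpi was found in 2.60% (0.316 to 9.07%) and 2.34% (0.641 to 5.88%), and before thinning in 5.56% and 2.69%. Lct was found in 14.3% (7.35 to 24.1%) and 19.3% (13.7 to 26.02%), and before thinning in 18.9% and 26.9%. Apoc3 was found in 7.79% (2.91 to 16.2%) and 2.34% (0.641 to 5.88%), and before thinning in 7.78% and 4.30%. The intervals overlap for all 5 genes and cover counting error only. Genes that epithelial cells should lack gave shares that varied. Ptprc, a gene of blood cells, was found in 11.7% and 24.6% of the thinned cells and in 23.3% and 36.02% before thinning. Cd3e, of T cells, was found in 2.60% and 8.19% of thinned cells, and Col1a1, of fibroblasts, in 2.60% and 2.92%. Cd8a, also of T cells, was found in 1.30% and in 0% (exact upper limit 2.13%), and Pecam1, of endothelium, in 27.3% and 37.4%. The shares of Apoa4, Alpi, Lct and Apoc3 lie within the range of these genes, and that of Sis in gate-high cells lies just above it.

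**Figure D3:**
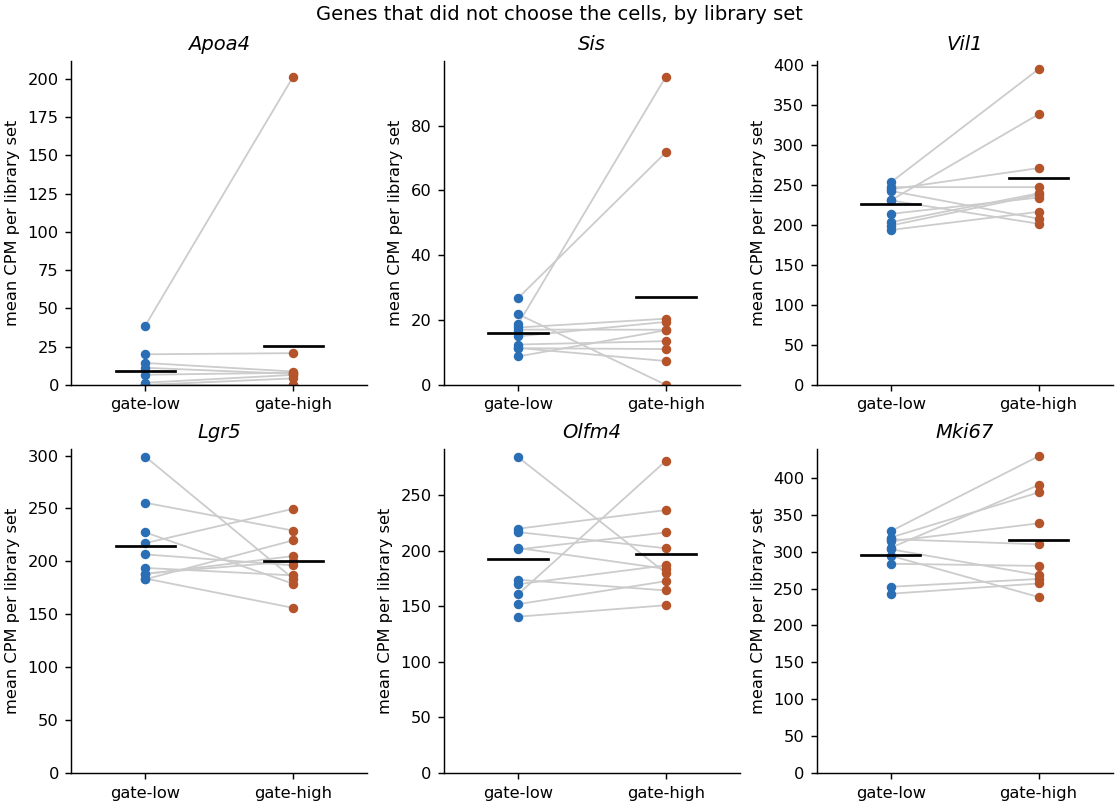
Mean CPM per library set in gate-low (blue) and gate-high (orange) cells for 3 absorptive genes (Apoa4, Sis, Vil1) and for Lgr5, Olfm4 and Mki67, none of which chose the cells, with black bars for the mean of 10 sets. The high Apoa4 point of 201.4 CPM is library set 10, which holds the cell that stands apart, and the classes overlap in all 6 panels.

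Gate-high cells kept the transcripts of Lgr5 stem cells. Lgr5 itself had set means of 155.98 to 249.7 CPM (median 198.2) in gate-high cells and 183.1 to 298.9 CPM (median 200.2) in gate-low cells, higher in 4 sets and lower in 6. The pooled levels were 200.4 CPM (exact 95% Poisson interval 183.9 to 217.9) and 206.8 CPM (195.6 to 218.4), intervals that overlap and cover counting error only. Olfm4, a secreted stem cell marker, had 197.5 against 192.3 CPM (0.04 ± 0.36). Ascl2, a transcription factor of stem cell identity, had 171.9 against 157.8 CPM (0.12 ± 0.52). Smoc2, a matrix protein gene of these cells, had 304.95 against 282.9 CPM (0.11 ± 0.17), and Axin2, a Wnt target, 187.99 against 173.6 CPM (0.11 ± 0.34). Over 26 stem cell genes the median was 0.03, with 16 above 0, 10 below and none called. The sign of this small median depended on the scaling: it was -0.05 when CPM was taken over genes seen in at least 50% of the cells.

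Mex3a, the marker of slowly dividing Lgr5 cells for which the series is named, had 6.56 against 9.87 CPM (-0.52 ± 2.45) and was found in 7.79% and 9.94% of thinned cells. Atoh1, the switch to secretory fate, had 4.18 against 5.53 CPM (-0.33 ± 2.10). Hes1, the Notch target that represses it, had 448 against 386.6 CPM (0.21 ± 0.19, higher in 8 of 10 sets). The 13 Notch pathway genes had a median of -0.30, with 4 above 0 and Maml1, a Notch coactivator, called lower (11.4 against 18.9 CPM). The 6 of them seen in at least 50% of the cells had a median of -0.24, with 2 above 0. All ranked genes seen in at least 50% of the cells had a median of 0.06, and those seen in fewer -0.31. Of all ranked genes, 17.7% were called lower. Whether the pathway differs between the classes was not tested.

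Mki67, Top2a and Pcna differed by less than their spread over sets. Mki67 had set means of 238.5 to 429 CPM (median 295.3) in gate-high cells and 242.9 to 327.6 CPM (median 304.3) in gate-low cells. Top2a, a topoisomerase of dividing cells, had 461 against 417 CPM (0.14 ± 0.15), and Pcna, the replication clamp, 150.98 against 143.97 CPM (0.07 ± 0.59). Over 47 genes of S phase the median was 0.03 (28 above 0), with Cdc45, a replication helicase subunit, called higher and Brip1, a DNA repair helicase, called lower (-0.71 ± 0.56). Over 53 genes of G2 and mitosis it was 0.11 (39 above 0), with the kinetochore gene Nuf2 (91.7 against 58.7 CPM) and the centrosome kinase gene Nek2 (69.1 against 38.9 CPM) called higher. Scaled to genes seen in at least 50% of the cells, the S phase median was -0.05 and that of G2 and mitosis was level with 0. The cell cycle inhibitors Cdkn1a (-0.29 ± 1.27) and Cdkn1b (0.28 ± 1.45) lay on opposite sides of 0, each within its spread.

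Most metabolic genes had small ratios above 0. Of 18 genes of sugar and amino acid metabolism 17 lay above 0, with a median of 0.21 and none called. Khk, the ketohexokinase, had 84.1 against 56.04 CPM (0.58 ± 0.68). Of 21 genes of fatty acid oxidation and ketone synthesis 16 lay above 0 (median 0.18). Acadvl, an acyl-CoA dehydrogenase, had 154.3 against 109.7 CPM (0.49 ± 0.47), and Ehhadh, a peroxisomal enzyme, was called lower. The xenobiotic list had 19 of 27 above 0 (median 0.15), with Sult1b1, a sulfotransferase, called higher (62.03 against 36.5 CPM, 9 of 10 sets) and the cytochrome gene Cyp2b10 called lower.

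Housekeeping lists also had medians above 0. Respiratory chain genes of the nucleus had 79 of 83 above 0 (median 0.24), ribosomal proteins 82 of 85 (median 0.20, with Rpl3l, a paralog best known from muscle, called lower) and ribosome biogenesis genes 19 of 26 (median 0.17). Cox7a1, a subunit of cytochrome c oxidase, was the 1 gene of the respiratory chain list called higher (42.1 against 18.7 CPM). The epithelial list had 8 of 9 above 0 (median 0.18), with Epcam, an epithelial adhesion protein, at 534 against 460 CPM (higher in all 10 sets). Ribosomal protein genes span a median of 3.24 kb of the genome and respiratory chain genes 7.21 kb. The median of all 1110 genes spanning under 5 kb and seen in at least 50% of the cells was also 0.20, and that of 694 genes of 5 to 10 kb was 0.19.

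Transcription factors of the intestine had a median of 0.09 over 30 genes, 18 above 0. Hnf4a, which maintains enterocyte identity, had set means of 409 to 615 CPM (median 495) against 391.4 to 523 CPM (median 436) (0.18 ± 0.17, higher in 8 sets). Its paralog Hnf4g had 113.2 against 124.4 CPM, the endoderm factor Gata4 119.9 against 129.1 CPM, and the intestinal homeobox genes Cdx1 and Cdx2 160.2 against 134.4 CPM and 15.03 against 22.97 CPM, each within its spread over sets. Pparg, a lipid-sensing receptor, and Prdm1, a repressor that marks the immature gut, were called lower. Over 18 antimicrobial and regenerating genes the median was 0.11 (10 above 0), and Nos2, a nitric oxide synthase (2.19 against 8.79 CPM), and Duox2, a peroxide-forming oxidase (7.71 against 15.4 CPM), were called lower. Of the antimicrobial lectins, Reg3b had 281.9 against 293.9 CPM and Reg3g 211.96 against 204.6 CPM.

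Among the remaining lists, 15 of 17 genes of the stress of dissociation lay above 0 (median 0.18, none called) and 8 of 12 genes of the BMP pathway (median 0.11). The 8 genes of MHC class II presentation had a median of 0.05, with Ciita, their transactivator, called lower (5.52 against 22.7 CPM). The 8 genes of the villus top had a median of 0.13, and of -0.09 without the cell of highest gate value, with the nucleoside transporter gene Slc28a2 and the nucleotidase gene Nt5e called lower. The 8 genes of the proximal gut had a median of -0.14, and none of 5 genes of the distal gut lay above 0 (median -0.88).

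**Figure D4:**
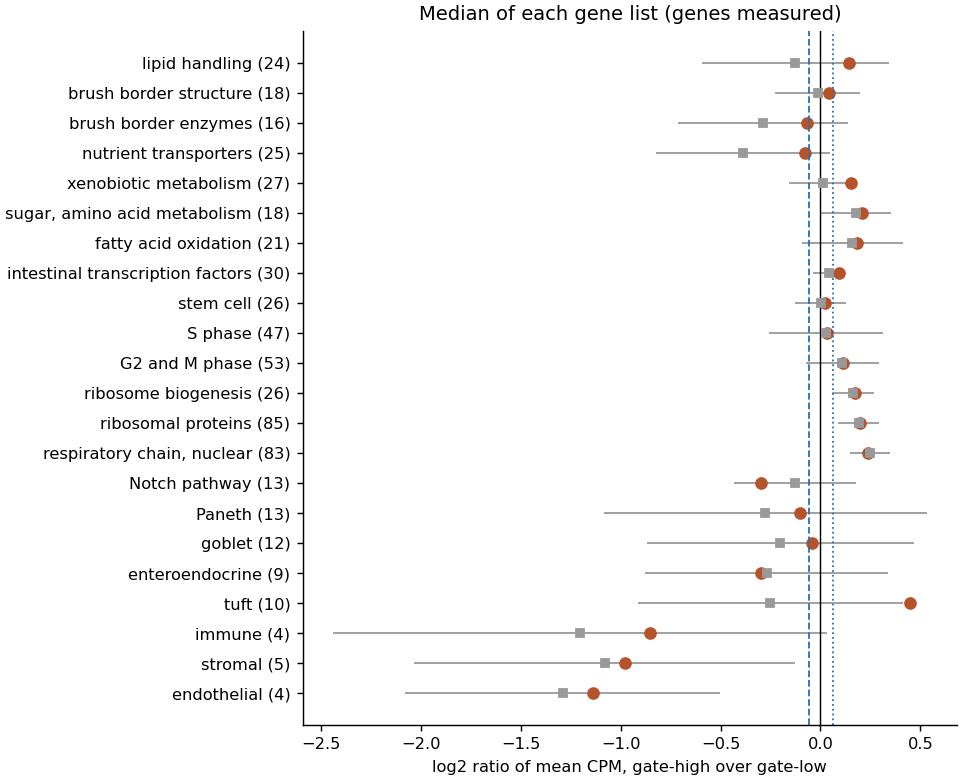
Orange points give the median log2 ratio (gate-high over gate-low) of each gene list, and grey squares with bars the mean ± SD over 10 sets of the median taken within a set. The dashed line is the median of all 14737 ranked genes, -0.06. The dotted line is that of ranked genes seen in at least 50% of the cells, 0.06. Not drawn is the median of all 20832 genes past the floor of the lists, -0.17. The orange points of the 4 absorptive lists lie between -0.08 and 0.14 and their grey squares between -0.39 and -0.01, and of the lists drawn the immune, stromal and endothelial ones lie lowest.

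The number of genes seen in a cell also moved with the gate value. Gate-high cells had a count for a median of 7958 genes and gate-low cells for 9117, and the set median was lower in gate-high cells in 9 of 10 sets (mean difference -883 ± 791 genes). Total counts differed less, with medians of 31926 and 34096 (lower in 6 of 10 sets). Genes that span at least 100 kb of the genome gave 14.1% of the counts of a gate-high cell and 17.1% of those of a gate-low cell, again lower in 9 of 10 sets. Genes seen in under 50% of the cells gave 14.9% and 17.4%, lower in all 10 sets. Across the 380 cells, Spearman's rho of the gate value with the share of long genes was -0.39. It was -0.33 for Fabp2, -0.26 for Prap1, -0.13 for Fabp1 and 0.04 for Apoa1. The median was -0.18 over 4566 other genes that span under 50 kb and were seen in at least 50% of the cells. Apoa1 was seen in 20.5% of the cells and so lies outside that class. All these values share the scaling to a cell's total, in which more counts from long genes lower the CPM of all others.

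The ratios of single genes followed the same axis. Among genes seen in at least 50% of the cells, the median log2 ratio was 0.20 for genes under 5 kb (87.3% of 1110 genes above 0), 0.10 at 20 to 50 kb, -0.18 at 100 to 200 kb and -0.58 above 200 kb (6.40% of 860 genes above 0). No gene of 100 kb or more was called higher, whereas 86.7% of the 586 genes called lower were that long. Of the 6826 genes not called, 17.6% were. Kcnma1, a potassium channel gene of 725 kb, had set means of 23.7 to 75.5 CPM (median 36.04) against 68.6 to 141.2 CPM (median 116.4) (-1.20 ± 0.55, lower in 10 of 10 sets). Fyn, a kinase gene of 196.5 kb, had 4.73 to 27.9 CPM (median 19.2) against 28.9 to 64.8 CPM (median 49.5), ranges that did not overlap (-1.48 ± 1.09). Ryr2, a calcium channel gene best known from heart muscle that spans 554 kb, had 25.2 against 60.2 CPM and was lower in 9 sets. Csgalnact1, an enzyme of chondroitin synthesis, Edil3, a matrix protein, and Bmpr1b, a BMP receptor, had ratios of -1.49, -1.45 and -1.38 and span 378.4, 502 and 332.3 kb. These 6 genes came from a ranking of genes seen in at least 50% of the cells, a limit set after the values were seen. The highest ratios of that ranking were smaller. Agpat2, an acyltransferase of lipid synthesis, had 71.2 against 39.5 CPM (0.83 ± 0.93), and Trnt1, an enzyme that completes transfer RNAs, 80.4 against 47.1 CPM (0.76 ± 0.45, higher in all 10 sets).

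**Figure D5:**
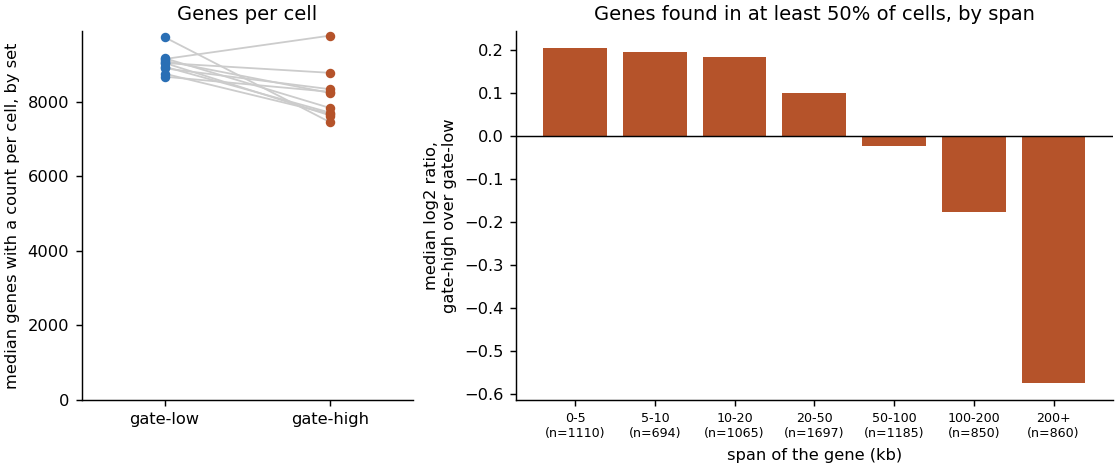
Left, median number of genes with a count per cell in gate-low (blue) and gate-high (orange) cells of each library set. Right, median log2 ratio by the span of the gene for genes seen in at least 50% of the cells, from 0.20 in the shortest bin to -0.58 in the longest, with the number of genes under each bar.

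The trend with span was also present when the gate was drawn separately among the gene-rich and the gene-poor cells of each set. The classes then had nearly equal gene numbers (8620 and 8682), and the medians were -0.46 for genes above 200 kb and 0.19 for genes under 5 kb. With Fabp1 and Apoa1 alone as the gate they were -0.31 and 0.10. With both the gate and the values scaled to genes spanning under 50 kb they were -0.28 and 0.03, and the median of the 83 absorptive genes was 0.03. Where the counts in long genes come from was not tested.

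Over all ranked genes, sparse ones included, the 15 protein-coding genes called higher with the largest ratios were led by Gstk1, a glutathione transferase (16.2 against 5.39 CPM, 1.43 ± 1.64), Zbtb48, a telomere-binding factor (34.8 against 13.1 CPM), Daxx, a histone chaperone (42.1 against 16.1 CPM), and Tjap1, a tight junction protein (41.7 against 15.95 CPM). The 15 were seen in 15.5 to 39.5% of the cells. Mvk, the mevalonate kinase of cholesterol synthesis, was among them (20.6 against 9.58 CPM, higher in 9 sets). Fdps of the same pathway was called higher (50.2 against 29.4 CPM) and Sc5d lower (13.9 against 22.7 CPM), and the 22 genes of the pathway had a median of 0.20. The 15 with the lowest ratios were sparse too, among them Etv4, a transcription factor (0.938 against 10.2 CPM), Slc26a4, an anion exchanger (1.39 against 12.2 CPM), and Uox, the urate oxidase (2.11 against 15.6 CPM).

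Markers of other cells were examined as whole lists, with their summed level by set. The Paneth list had a median of -0.10 over 13 genes (4 above 0, Habp2 called lower) and sums of 1102 to 3699 against 960 to 3282 CPM. The median sum over sets was 1871 against 2376 CPM, and the sum was higher in gate-high cells in 4 of 10 sets. Lyz1, the Paneth lysozyme, had 223.8 against 239.99 CPM (-0.10 ± 0.75). The goblet list had a median of -0.04 over 12 genes and sums of 251.01 to 1825 against 388.7 to 1459 CPM (medians 601 and 686 CPM, higher in gate-high cells in 6 of 10 sets). Muc2, the intestinal mucin, had 52.3 against 31.8 CPM (0.70 ± 1.86), and Spdef, a secretory transcription factor, and Fer1l6 were called lower. The enteroendocrine list had a median of -0.30 over 9 genes and sums of 12.3 to 69.5 against 17.1 to 74.8 CPM (medians 51.1 and 55.4 CPM, higher in gate-high cells in 3 of 10 sets). Scg2, too sparse to enter that median, was at 0 in gate-high cells, which is not read as a drop. The tuft list had a median of 0.45 over 10 genes, 7 above 0, and sums of 124.9 to 768 against 129.6 to 435 CPM. Its sum was higher in gate-high cells in 2 of 10 sets, and its median was -0.71 without library set 1. Dclk1, its defining kinase, which spans 296.7 kb, was called lower (33.4 against 57.1 CPM).

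Lists of markers from outside the epithelium had medians below 0. Their genes were all seen in under 50% of the cells, and the 7258 ranked genes of that kind had a median of -0.31, with 31.4% above 0. Of those 7258 genes, 2016 were called lower and 93 higher. The immune list had a median of -0.86 over Ptprc, Cd3e, Lck and Cd52, with Cd52 called lower, and sums of 3.45 to 69.97 against 46.7 to 129.3 CPM. Coro1a, Gzma, Nkg7 and Tyrobp, seen in under 5% of the cells and so too sparse to enter that median, were at 0 in all 90 gate-high cells. With so few counts and gate-high cells the smaller class, these zeros are not read as a drop. The stromal list had a median of -0.98 over 5 genes and sums of 2.86 to 28.8 against 13.7 to 53.01 CPM, with Col1a2, Pdgfra and Dcn called lower. The endothelial list had a median of -1.14 over 4 genes and sums of 10.2 to 78.8 against 44.5 to 139.7 CPM, with Kdr, Pecam1 and Emcn called lower. The part of these levels in the other results was not tested.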

How the data were processed

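The authors deposited whole-number counts per gene and cell for 400 cells, built on GRCm38.p4 according to the submitters' processing notes. What aligner, counter and annotation were used, and whether counting used strand or molecular tags, is not given in the sources used here. Of 33496 genes in the table, 33219 matched a symbol in GENCODE M21 by identifier, and 0 rows were spike-ins. The 20 cells with under 10000 counts were left out. Doublets were not removed. CPM was computed over all genes of a cell. Mean CPM of each class was taken per library set, and the means over 10 sets gave log2((gate-high + 1)/(gate-low + 1)), with a pseudocount of 1 CPM and the SD of the set ratios. Lists used genes seen in at least 5% of kept cells, without the 4 selecting genes. Genes to name were drawn from the selecting genes, known markers, the 3 highest, 3 lowest and every called gene of each list, and the 15 highest and lowest called protein-coding genes. A second ranking, within genes seen in at least 50% of cells, was added after seeing the data. The members and lists were chosen with earlier results of these data known. The ratio code was tested on simulated data. Python 3.11.15, numpy 2.4.6, pandas 2.3.3 and scipy 1.17.1 were used.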

Additional observations from a re-analysis of the deposited data

How the results depend on the processing

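No paired analysis was possible because the labels give 1 group, with no second group to share its replicate numbers; both classes were drawn and compared within each library set. Calls of higher, 0.964% of ranked genes, became 1.49% with the gate drawn within depth classes, 2.27% with CPM over genes with a mean count under 5, 0.311% with no scaling for depth, 0.610% without Fabp2 in the gate, 0.497% against all other cells, 0.631% with a pseudocount of 5 CPM, 0.440% with CPM over genes seen in at least 50% of cells, and 0.378% with CPM over genes spanning under 50 kb. Leaving out each library set in turn gave 0.416 to 0.607%, as 8 of 9 sets then had to share a direction. Calls of lower, 17.7%, became 10.8% against all other cells, 10.5% without the 10% of cells with the most genes, 7.06% with Fabp1 and Apoa1 as the gate, and 9.14% with CPM over genes spanning under 50 kb, and 11.2 to 13.9% with a library set left out (lowest without library set 1). The stem cell median of 0.03 was -0.13 with no scaling for depth, which moved the median of all genes by -0.14, and -0.11 for the top 10% of cells. Over 32 alternatives the median of the 4 absorptive lists lay between -0.16 and 0.14, S phase between -0.08 and 0.19, G2 and mitosis between -0.04 and 0.26, and Paneth between -0.76 and 0.02. Called genes with the other sign were, with Fabp1 and Apoa1 as the gate, Cd52 (0.0632), Habp2 (0.16), Jrkl (-0.55), Pdgfra (0.14), Slc6a19 (0.0394), Xpnpep2 (0.21) and Zfp729a (0.17), and also Xpnpep2 without Prap1 in the gate (0.14), Slc28a2 in thinned cells (0.21) and Slc9a3 with CPM over genes spanning under 50 kb (0.32). The cause of these moves was not tested. The alternatives that leave out the cell of highest gate value, draw the gate within gene-number classes or from Fabp1 and Apoa1, and scale to genes seen in at least 50% of cells or spanning under 50 kb were chosen after seeing the data. After thinning, which left out 38 cells (13 of the 90) and redrew the classes among the rest, 56 of 81 selected cells were among the 90.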
